A study of Mus musculus with 60 samples.

Results

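Primary brown and primary white mouse preadipocytes were compared for how far each gene moved during 6 days of differentiation. The data are 12 of the 60 libraries of the series: 3 each of pBAT (primary brown preadipocytes) and pWAT (primary white preadipocytes) at day 0 and at day 6. Per the labels all of these cells are Wild type, were isolated from p0-p1 pups, were expanded in medium with 20% serum and were then given adipogenic differentiation in medium with 10% serum. The labels name no depot, sex or strain and do not say whether pups were pooled or whether replicates are separate cultures, so p-values measure only the spread between libraries. RNA was sequenced from stranded mRNA libraries. The other experiments of the series concern heme synthesis in brown adipocytes and are not used here.

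White adipocytes store fat in 1 large droplet and release fatty acids and hormones. Brown adipocytes carry many small droplets and many mitochondria, and burn fatty acids and glucose to make heat, for which the uncoupling protein Ucp1 lets protons back into the mitochondrial matrix without making ATP. Both arise from fibroblast-like precursors through the same adipogenic regulators, Pparg and the C/EBP factors, and they lose contractile genes as they fill with lipid.

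The quantity reported is the change in pBAT (mean of day 6 minus mean of day 0) minus the change in pWAT, in log2 units, called the difference below. A difference of 1 means that the day 6 to day 0 ratio was 2-fold larger in pBAT. The authors normalized the 2 cell types in separate tables, so levels are compared between days within a cell type and never between cell types. The deposited values are taken as log2 values. On this scale the values of weakly expressed genes are compressed and their changes understated, and read depth cannot be recovered. The members are the 13217 genes that are present in both tables (18025 genes) and reach a group mean of at least 4 in any of the 4 groups. Each change comes from a limma fit of its own table, the standard error (SE) of the difference combines both fits, and a gene is called at a Benjamini-Hochberg adjusted p under 0.05 over all 13217 genes.

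The libraries of a group lay close together. The SD of a library about its group mean was 0.146 to 0.225 log2 units over the genes tested, and it was highest in replicate 3 of pWAT at day 6. The values, raised from log2, summed to 18.2 to 18.7 M per library at day 0 and 20.0 to 22.5 M at day 6. General adipocyte genes went with the day labels: 26 of 26 rose in pBAT and 24 of 26 in pWAT. Because they rose in both, they do not separate the brown label from the white one. The early myogenic genes Myh3, Myog and Mymk were listed in the pBAT table only, but 10 of 15 skeletal muscle genes were in both tables.

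Most of what differentiation did was shared. The changes had a Pearson correlation of 0.8795 and a Spearman correlation of 0.8584 across the 13217 genes, given as a description because genes are not independent. In pBAT 10211 genes were called (77.3%), of which 5042 rose (38.1%) and 5169 fell (39.1%). In pWAT 9346 were called (70.7%), of which 4670 rose (35.3%) and 4676 fell (35.4%). Of these, 3836 rose in both cell types and 3977 fell in both. Opposite calls were rare: 108 genes rose in pBAT and fell in pWAT, and 199 fell in pBAT and rose in pWAT.

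The size of the change nevertheless differed for many genes. limma with Benjamini-Hochberg adjustment called 5036 genes (38.1% of those tested) for the difference, 2361 with the higher change in pBAT (17.9%) and 2675 with the lower change in pBAT (20.2%). Of the called genes 46.9% had the higher change in pBAT, and the median difference over all genes tested was 0.00081. Differences of at least 1 were called for 469 genes on the pBAT side (3.55%) and 1024 on the pWAT side (7.75%). On a log2(CPM-like value + 1) scale the former count was 306. Among genes that rose in both cell types, 1064 rose further in pBAT and 655 rose further in pWAT. Among genes that fell in both, 944 fell further in pBAT and 354 fell further in pWAT.

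**Figure D1:**
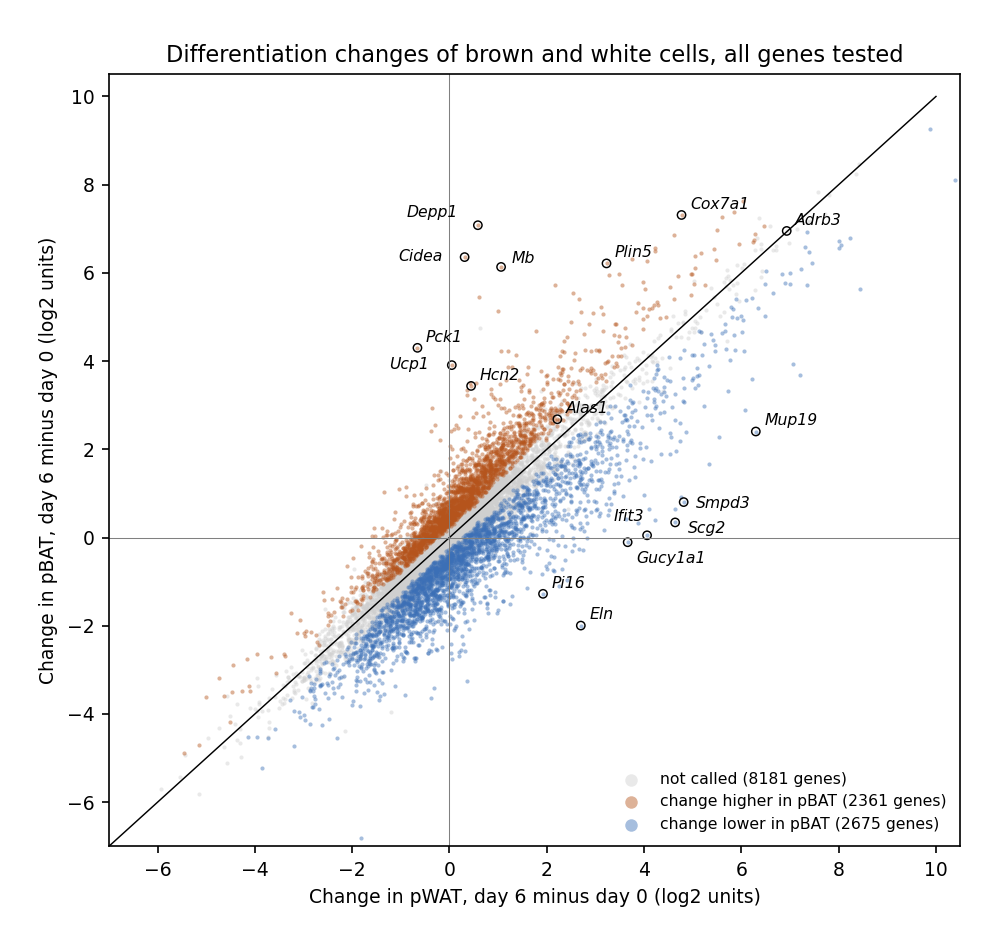
Change from day 0 to day 6 in pWAT (horizontal axis) against pBAT (vertical axis), in log2 units, for the 13217 genes tested; the diagonal marks equal changes and orange and blue points are genes called for the difference. Cidea, Mb, Depp1 and Pck1 lie far above the diagonal, Eln and Ifit3 far below it, and Adrb3 on it.

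The 12 largest differences on the pBAT side included Cidea, Ucp1, Ppara, Mb and Pck1. The 12 were taken from called genes with a group mean of at least 6 in some group and with no overlap between the library changes of the cell types, so their size follows from how they were chosen. Depp1, a forkhead and progesterone responsive gene linked to autophagy, had the largest difference. It was at 2.61, 2.70 and 2.85 in pBAT at day 0 and at 9.54, 10.00 and 9.86 at day 6, and in pWAT at 1.80, 2.06 and 1.80 and then at 2.69, 2.63 and 2.09. The pBAT libraries of the 2 days stand far apart and the pWAT libraries move little, for a difference of 6.50 (SE 0.313, limma adjusted p = 7.51e-14).

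Cidea encodes a lipid droplet protein that is a classical mark of brown fat. Its values in pBAT were 2.62, 2.78 and 2.63 at day 0 and 8.92, 8.95 and 9.23 at day 6. In pWAT they were 0.89, 0.89 and 0.82 at day 0 and 1.34, 1.04 and 1.15 at day 6. Every pBAT library of day 6 was more than 6 log2 units above every one of day 0. The pWAT gain of 0.31, though called, was small (difference 6.05, SE 0.208, limma adjusted p = 1.04e-17).

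Ucp1 itself rose in pBAT alone by the tests of each table. Its values in pBAT were 2.50, 2.49 and 2.50 at day 0 and 6.45, 5.87 and 6.91 at day 6. In pWAT they were -0.96 in each day 0 library and -0.95, -0.82 and -0.95 at day 6, near the bottom of that table. The difference was 3.86 (SE 0.293, limma adjusted p = 6.03e-09). On the log2(CPM-like value + 1) scale, which compresses low levels in another way, the Ucp1 difference was 1.93. The pWAT change of 0.05 was not called.

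Mb encodes myoglobin, the oxygen-binding heme protein of muscle that brown adipocytes also make. It rose in pBAT from 3.91, 3.96 and 4.23 to 10.08, 9.91 and 10.52, and in pWAT from 1.82 in each library to 2.87, 3.01 and 2.76 (difference 5.07, SE 0.265, limma adjusted p = 2.38e-13). Pck1, the cytosolic PEP carboxykinase used in adipocytes to make glycerol for triglycerides, went in opposite directions. It rose in pBAT from 4.62, 5.25 and 5.32 to 9.25, 9.06 and 9.77, and fell in pWAT from 5.27, 5.08 and 5.19 to 4.30, 4.68 and 4.59. No pWAT library of day 6 reached any of day 0, and the difference was 4.96 (SE 0.278).

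Ppara, the fatty acid sensing nuclear receptor that drives oxidation genes, rose by 4.24 in pBAT and by 1.20 in pWAT (difference 3.03, SE 0.329, limma adjusted p = 2.12e-08). The other genes of this set were Cecr2, a chromatin remodelling factor (4.85), Mreg, a melanosome transport gene (4.15), Timp4, an inhibitor of matrix proteases (3.55), Dhrs9, a retinol dehydrogenase (3.17), Slc9b2, a sodium-proton exchanger (3.08), and Hcn2, a pacemaker channel (2.99). Slc9b2 had no called change in pWAT, and the others rose in both cell types and further in pBAT. Because Mb is also a muscle gene, the summed level of the skeletal muscle list is given beside it. It was lower at day 6 in both cell types. In pBAT it went from 10.23 to 10.36 down to 8.59 to 8.87, and in pWAT from 9.61 to 9.89 down to 7.29 to 7.58. A sum follows its highest genes, and the median change of the 6 genes tested was -1.24 in pBAT and -0.0075 in pWAT. In pWAT 1 of the 6 rose and 1 fell. The part of muscle genes in the Mb result was not tested.

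Of the 38 genes listed as brown adipocyte and thermogenic genes, 36 were in both tables and 32 were tested. The change was higher in pBAT for 18 of the 32 and lower for 5, against 17.9% and 20.2% of all genes tested. The median difference was 0.64, against 0.00081 over all genes. When both tables had to reach a group mean of 4, the counts were 14 and 4 and the median was 0.50. The list rose in both cell types, 23 of 32 in pBAT (median 2.56) and 22 of 32 in pWAT (median 0.88). The lower count was 3 without replicate 1 of pBAT at day 6, without replicate 2 of pWAT at day 0, and with a minimum group mean of 6. The members that were not tested because of low values were Otop1, Esrrb, Bmp8b and Cited1.

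Besides Cidea and Ucp1, the list holds genes of the mitochondrion. Cox7a1, a subunit of cytochrome c oxidase found in muscle and brown fat, was at 3.43, 3.89 and 3.54 in pBAT at day 0 and at 10.81, 10.92 and 11.07 at day 6. In pWAT it went from 4.16, 3.97 and 3.93 to 8.76, 8.76 and 8.86. Both cell types thus induced Cox7a1, by 7.31 and by 4.77, with no overlap between days (difference 2.54, SE 0.199, limma adjusted p = 4.67e-11). Cox8b, another such subunit, differed by 2.24, and Letmd1, a mitochondrial protein needed for brown fat thermogenesis, by 1.47.

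Other members handle lipid or regulate transcription. Plin5, which ties lipid droplets to mitochondria, rose in pBAT from 3.02, 3.17 and 3.03 to 9.28, 9.26 and 9.32 and in pWAT from 3.09, 3.30 and 3.40 to 6.76, 6.48 and 6.24 (difference 2.99, SE 0.290). Cpt1b, the muscle-type carnitine acyltransferase that admits fatty acids to mitochondria, differed by 2.74, and Dio2, the deiodinase that activates thyroid hormone, by 2.25. The coactivator gene Ppargc1b rose by 4.89 in pBAT and by 2.50 in pWAT (difference 2.39, SE 0.185). Its relative Ppargc1a rose by 4.09 and 3.62, and its difference of 0.46 was not called (SE 0.352, limma adjusted p = 0.32). Prdm16 and Ebf2, transcription factors of brown identity, differed by 0.79 and 0.48, both called.

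Some genes often used as thermogenic markers were not called. Adrb3, the beta-3 adrenergic receptor, rose by 6.95 in pBAT and 6.93 in pWAT (difference 0.02, SE 0.181, 95% interval -0.35 to 0.39, limma adjusted p = 0.95). Elovl3, a fatty acid elongase, rose by 3.42 and 3.23 (difference 0.20, SE 0.249, 95% interval -0.31 to 0.71). Of the 32 genes tested in the list, 5 had the lower change in pBAT, a share below the 20.2% of all genes tested. They were Eva1a (-1.41), Lhx8 (-1.11), Slc29a1 (-0.89), Epsti1 (-0.73) and Zic1 (-0.66). Lhx8 and Zic1 are transcription factors used as marks of brown precursors: Zic1 fell by 0.72 in pBAT with no called change in pWAT, and Lhx8 had no called change in pBAT and rose by 1.22 in pWAT.

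**Figure D2:**
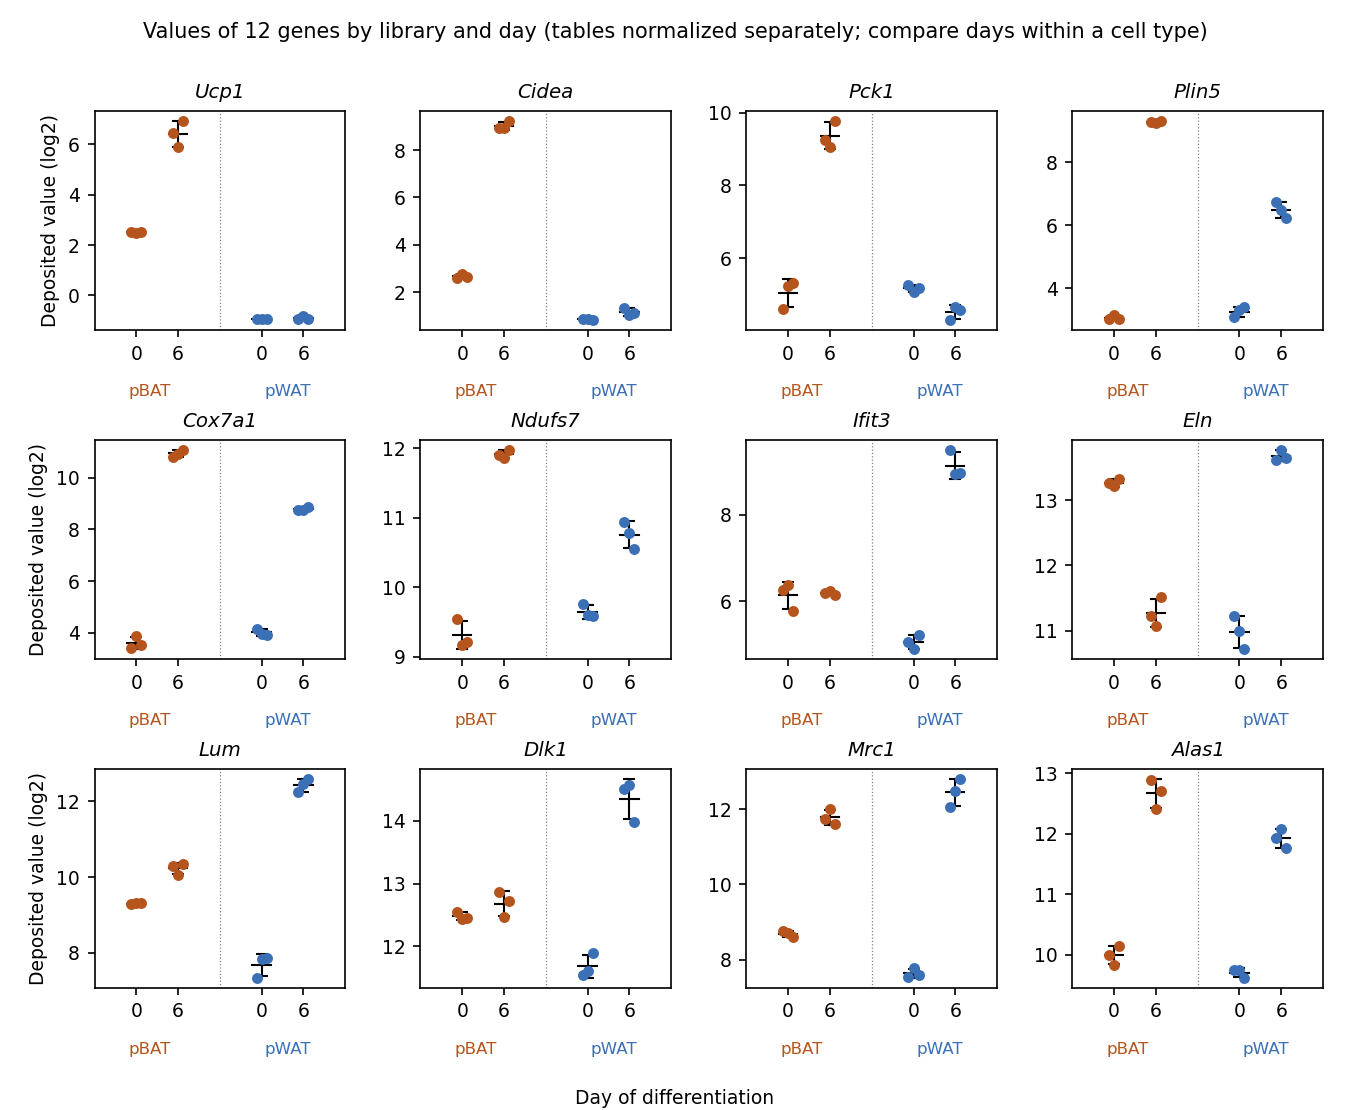
Deposited log2 value of 12 genes in each library (points) of pBAT (orange) and pWAT (blue) at days 0 and 6, with group means (bars) and SDs (error bars), n = 3 libraries per group. Ucp1 and Cidea climb in pBAT and stay low in pWAT, Ifit3 climbs in pWAT and not in pBAT, Eln falls in pBAT and rises in pWAT, and Alas1 climbs in both.

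Genes of the respiratory chain moved together. Complex I takes electrons from NADH, and all 37 of its listed genes were tested and rose in both cell types, with a median of 1.91 in pBAT and 1.07 in pWAT. The change was higher in pBAT for 32 of the 37 and lower for none, with a median difference of 0.82 and a range of 0.13 to 1.49. Ndufs7, a subunit near the end of the electron path, rose in pBAT from 9.55, 9.18 and 9.22 to 11.91, 11.86 and 11.98 and in pWAT from 9.77, 9.60 and 9.59 to 10.94, 10.79 and 10.55. Its libraries do not overlap between days in either cell type, and it differed by 1.49 (SE 0.129, limma adjusted p = 3.53e-10). Ndufa6, Ndufa12 and Ndufb8 differed by 1.23, 1.19 and 1.02.

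The 36 genes of complexes II to V had 31 with the higher change in pBAT and a median difference of 0.69. Uqcrc1 of complex III (1.21), Sdhb of complex II (1.06), the ATP synthase subunit gene Atp5b (1.00) and Cyc1, cytochrome c1 (0.94), had the smallest adjusted p. The 2 genes with the lower change were Atp5g3 (-0.51) and Atp5g1 (-0.27), which with Atp5g2 encode an identical mature subunit c; this count was 1 without replicate 2 or 3 of pBAT at day 0, 1 or 2 of pBAT at day 6, 2 or 4 of pWAT at day 0, or 1 of pWAT at day 6. The 13 mitochondrially encoded genes all rose in both cell types, by a median of 1.55 and 1.40. Only 3 were called for the difference, each higher in pBAT, against 17.9% of all genes tested. They were mt-Nd6 (1.13), mt-Co1 (0.60) and mt-Cytb (0.47). mt-Co1 was not called after quantile normalization (difference 0.12). All genes with a name starting in mt- were also taken as a share of a library's summed linear values, which is not a share of reads. That share went from 3.26 to 3.87% to 9.27 to 10.3% in pBAT and from 2.89 to 3.15% to 6.25 to 7.51% in pWAT.

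Upstream of the chain, the TCA cycle, which oxidizes acetyl-CoA, had 18 of 22 genes with the higher change in pBAT and 1 with the lower, and a median difference of 0.78. Idh2, the mitochondrial NADP-dependent isocitrate dehydrogenase, went in opposite directions. It was at 10.85, 10.82 and 10.78 in pBAT at day 0 and at 11.67, 11.92 and 11.84 at day 6, and in pWAT at 11.33, 11.28 and 11.36 and then at 10.75, 10.76 and 10.68. Idh2 thus rose by 0.99 in pBAT and fell by 0.59 in pWAT, with groups that do not overlap (difference 1.59, SE 0.0961, limma adjusted p = 3.27e-13). Idh3b, of the NAD-dependent isocitrate dehydrogenase, differed by 1.20. The gene with the lower change was Pcx, pyruvate carboxylase (-1.14), which feeds the cycle and lipid synthesis.

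Mitochondrial fatty acid oxidation had 17 of 20 genes with the higher change in pBAT, among them both subunits of the trifunctional protein, Hadhb (1.35) and Hadha (0.90), the thiolase gene Acaa2 (1.23) and the long-chain dehydrogenase gene Acadvl (1.12). The median difference was 0.70. The isoforms of the entry enzyme split: Cpt1b differed by 2.74 and Cpt1a, the liver type, by -1.01, the only member with the lower change. Both were called.

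Glucose transport and glycolysis showed the largest median difference of the metabolic lists, 1.01 over 19 genes, with 18 higher in pBAT; Slc2a4, the insulin-responsive transporter, was the gene not called (-0.37, SE 0.247) and was called as lower without replicate 4 of pBAT or of pWAT at day 0. Slc2a1, the basal glucose transporter, was at 10.34, 10.27 and 10.46 in pBAT at day 0 and at 11.35, 11.22 and 11.46 at day 6. In pWAT it went down, from 11.42, 11.45 and 11.32 to 11.17, 11.02 and 10.96. The 2 cell types moved apart, and the difference was 1.33 (SE 0.110, limma adjusted p = 1.39e-10). Hk2, the hexokinase that traps glucose, differed by 1.36, Aldoa, an aldolase, by 1.07 and Pgk1, phosphoglycerate kinase, by 1.02. Aldoc (1.91) and Pdk4, which restrains pyruvate oxidation (1.84), had the largest differences.

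Promoter sequence of glycolytic genes is shown because 18 of 19 moved the same way. RefSeq promoters on GRCm38.p6 (250 bases before to 50 after the start site) matched 18 of the 19 genes. ACGTG, the core of the hypoxia response element, was searched on both strands and also lies within the E-box CACGTG. It was in the promoters of 11 of the 18 genes, and in 19.6% of 32851 promoters and 21.8% of genes with a promoter. The motif was chosen after the direction of the list was known, and a match is a description and not a binding site. Each run below is 5′ to 3′ on the gene's strand with the core on either strand in capitals and 30 bases on each side, from chr4:119108679-119108743 (plus strand) for Slc2a1, chrX:106186920-106187003 (plus strand) for Pgk1 and chr7:126799346-126799410 (minus strand) for Aldoa.
Slc2a1: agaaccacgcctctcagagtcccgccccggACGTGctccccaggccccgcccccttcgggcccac
Pgk1: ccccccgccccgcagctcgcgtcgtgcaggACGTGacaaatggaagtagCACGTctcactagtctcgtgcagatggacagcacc
Aldoa: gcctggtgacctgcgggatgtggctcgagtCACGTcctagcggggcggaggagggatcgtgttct

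Branched-chain amino acid (BCAA) catabolism, which supplies carbon to the TCA cycle, rose strongly in both cell types, 30 of 33 genes in each. Of the 33, 17 had the higher change in pBAT and 4 the lower, against 17.9% and 20.2% of all genes tested. The median difference was 0.41. The transaminase gene Bcat2 rose in pBAT from 9.19, 9.24 and 9.21 to 12.97, 12.92 and 13.12 and in pWAT from 9.62, 9.52 and 9.34 to 12.58, 12.54 and 12.17. Its rise was steep in both, by 3.79 and 2.94, and differed by 0.85 (SE 0.124, limma adjusted p = 6.72e-06). Dbt, the core of the branched-chain keto acid dehydrogenase, differed by 0.96, Pccb of propionyl-CoA carboxylase by 0.53, and Echs1, Hadh and Hsd17b10, shared with fatty acid oxidation or isoleucine breakdown, by 0.66, 0.56 and 0.70. The members with the lower change in pBAT included Abat, which breaks down GABA and a valine product (-1.61), Ehhadh (-1.12) and Acadsb (-0.53). The transporter gene Slc25a44 differed by 0.20 and was not called.

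Heme synthesis runs from Alas1, its first and rate-limiting enzyme outside red cell precursors, to Fech. Alas1 was at 10.00, 9.83 and 10.14 in pBAT at day 0 and at 12.89, 12.41 and 12.71 at day 6. In pWAT it was at 9.75, 9.75 and 9.61 and then at 11.93, 12.08 and 11.76. Both cell types raised Alas1, by 2.68 and 2.22, and the difference of 0.47 was called although the library changes overlap (SE 0.135, limma adjusted p = 0.0074). Alad, the second enzyme, differed by 0.72 (SE 0.139) and Urod, the fifth, by 0.55 (SE 0.124), both higher in pBAT. Uros (-0.003), Cpox (0.23), Ppox (-0.003) and Fech (0.12) were not called. The 95% interval of the difference was -0.13 to 0.38 for Fech and -0.43 to 0.42 for Uros. Alas2, the form of red cell precursors, was too low to test.

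**Figure D3:**
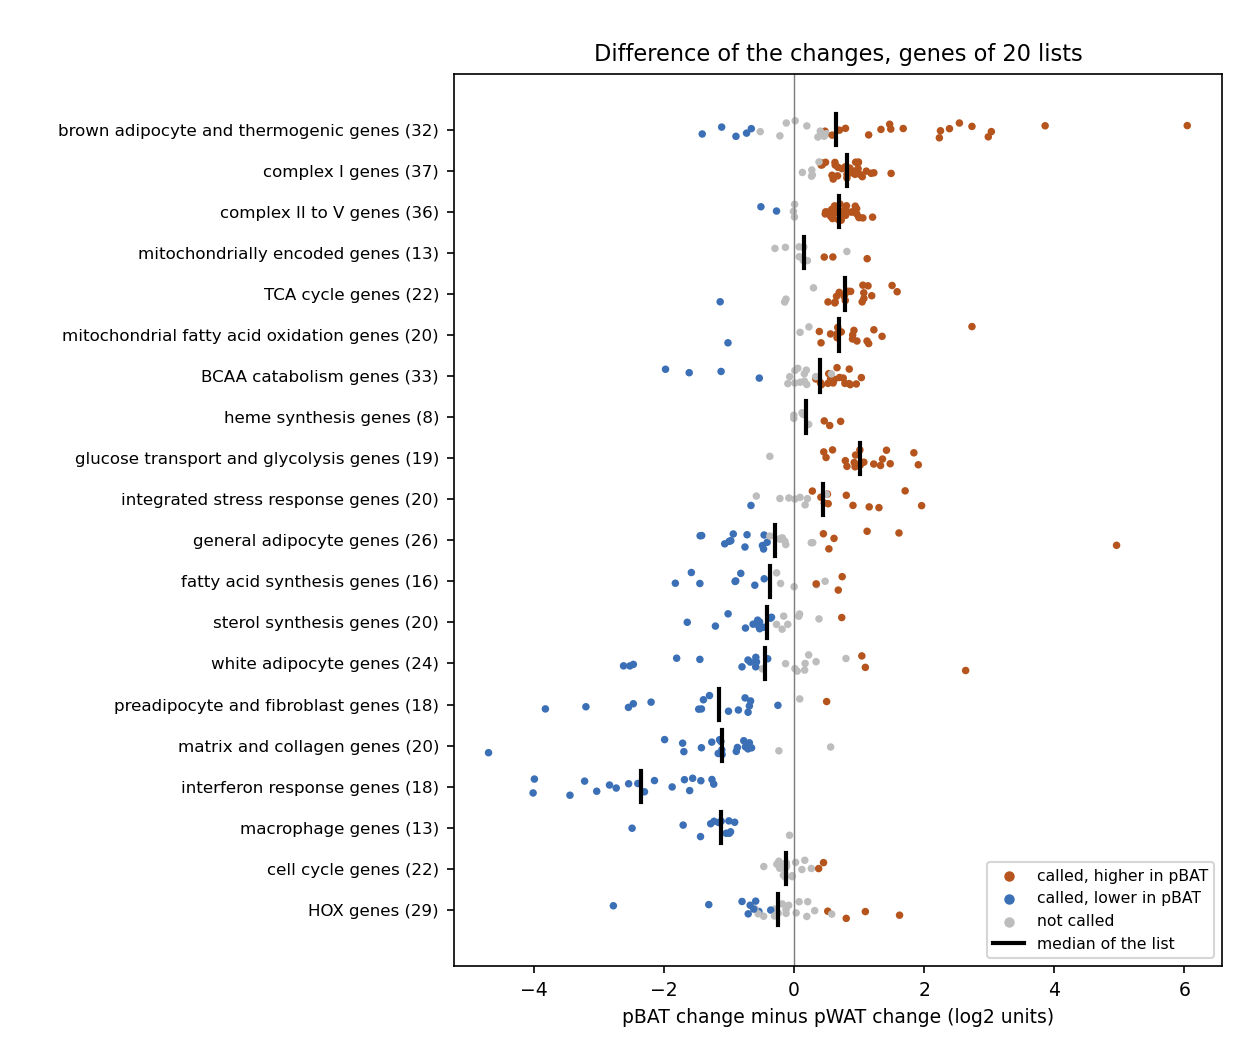
Difference of the changes (pBAT minus pWAT, log2 units) for each tested gene of 20 lists, with the number tested in brackets; colours mark genes called higher or lower in pBAT and black bars list medians. Respiratory, TCA, fatty acid oxidation and glycolysis genes lie mostly right of 0, and preadipocyte, matrix, interferon and macrophage genes mostly left of it.

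The common adipocyte programme rose in both cell types. General adipocyte genes changed by a median of 5.52 in pBAT and 5.78 in pWAT (median difference -0.29). Of 26 tested 6 had the higher change in pBAT and 12 the lower, against 17.9% and 20.2% of all genes tested. Fabp4, the fatty acid binding protein of adipocytes, rose by 7.17 and 7.35 (difference -0.18, SE 0.120, not called). Adipoq, which encodes adiponectin, rose by 6.01 and 7.004 and differed by -0.997 (SE 0.125), and the acyl-CoA synthetase gene Acsl1, the glycerol phosphate dehydrogenase gene Gpd1 and Cebpa differed by -1.44, -1.42 and -1.07. Pparg rose by 3.90 in pBAT and 3.45 in pWAT and was among the 6 on the other side (0.45, SE 0.136), with Cebpb (1.12), Aqp7, a glycerol channel (1.61), and Pck1.

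Of 24 genes listed as white adipocyte genes, 12 had the lower change in pBAT and 3 the higher, against 20.2% and 17.9% of all genes tested. The median difference was -0.45. Dlk1, an inhibitor of adipogenesis that precursors express, was at 12.55, 12.44 and 12.45 in pBAT at day 0 and at 12.86, 12.47 and 12.72 at day 6, and went in pWAT from 11.55, 11.60 and 11.89 to 14.51, 14.57 and 13.99. The pBAT libraries overlap between days, and the rise of 0.20 in pBAT was called narrowly (limma adjusted p = 0.0469), against a rise of 2.67 in pWAT (difference -2.47, SE 0.161, limma adjusted p = 1.07e-11). Dpt, a matrix protein (-2.62), Ccl9, a chemokine (-2.52), Mest, a gene tied to fat expansion (-1.80), and Car3, a carbonic anhydrase abundant in white fat (-1.45), were lower too. The hormone genes Lep (0.80, SE 0.397) and Retn (-0.13, SE 0.162) were not called. The 3 on the other side were Fbxo31 (2.64), Hoxc10 (1.10), whose pBAT values lay at 2.08 to 2.83, and Npr3, the clearance receptor for natriuretic peptides (1.04).

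Fatty acid synthesis genes make the lipid that adipocytes store. Of 16 genes 14 rose in each cell type, by a median of 3.29 in pBAT and 4.27 in pWAT, and 8 had the lower change in pBAT. Acly, which makes cytosolic acetyl-CoA from citrate, was at 12.54, 12.58 and 12.53 in pBAT at day 0 and at 15.27, 15.12 and 14.68 at day 6, and in pWAT went from 12.76, 12.92 and 12.88 to 17.18, 17.14 and 17.12. Any day 6 minus day 0 pair of libraries gave a larger rise in pWAT than in pBAT (difference -1.82, SE 0.129, limma adjusted p = 2.89e-11). The citrate carrier gene Slc25a1 (-0.91), the malic enzyme gene Me1 (-1.45) and the elongase gene Elovl6 (-1.58) differed the same way, and Fasn by -0.46. The 3 with the higher change, a share near the 17.9% of all genes tested, were the desaturase genes Fads1 (0.74), Scd2 (0.68) and Fads2 (0.34). This count was 1 without replicate 3 of pWAT at day 6.

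Sterol synthesis genes had 12 of 20 with the lower change in pBAT and a median difference of -0.41. Of the 20, 13 fell and 6 rose in pBAT (median change -0.88), and 11 fell and 7 rose in pWAT (median -0.59). Cyp51, lanosterol demethylase, fell by 0.43 in pBAT and rose by 1.21 in pWAT (difference -1.64, SE 0.125). Insig1, which holds back the sterol-sensing machinery (-1.21), and Sc5d (-1.01) followed, and Fdft1, squalene synthase (0.73), was on the other side. In the beta-adrenergic and lipolysis list 3 of 15 genes were higher and 3 lower, shares near the 17.9% and 20.2% of all genes tested. Mgll, the monoglyceride lipase that completes lipolysis, rose in pBAT from 8.58, 8.85 and 8.72 to 12.38, 12.09 and 12.47 and in pWAT from 6.98, 6.95 and 6.79 to 13.06, 13.15 and 13.15. The gain was 3.60 against 6.21, a difference of -2.62 (SE 0.127, limma adjusted p = 4.21e-15). Pnpla2, the first triglyceride lipase, differed by 0.62, its activator Abhd5 by -0.55 and Lipe, the hormone-sensitive lipase, by -0.14 without a call.

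Matrix and precursor genes lay mostly on the pWAT side. Eln encodes elastin, the rubber-like fibre of connective tissue, and had the most negative difference of the genes named. It was at 13.26, 13.21 and 13.33 in pBAT at day 0 and at 11.23, 11.08 and 11.51 at day 6, and in pWAT at a mean of 10.98 (SD 0.249, n = 3) and then at 13.62, 13.77 and 13.65. The libraries of the 2 days do not overlap in either cell type and the directions are opposite, a fall of 2.00 and a rise of 2.70 (difference -4.70, SE 0.134, limma adjusted p = 2.42e-20).

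Of 20 matrix and collagen genes, 18 had the lower change in pBAT, with a median difference of -1.11. In pBAT 14 of the 20 fell, with a median change of -1.40, and in pWAT 10 fell and 8 rose, with a median of -0.18. Col3a1, a fibrillar collagen, had no called change in pBAT and rose by 1.60 in pWAT (difference -1.69, SE 0.117). Col15a1, a basement membrane collagen, rose in both, by 0.62 and 2.61 (-1.99), and Fbn1, the microfibril protein, fell in both, by 2.12 and 0.41 (-1.71). Fn1, fibronectin, differed by -1.42. Col12a1 (-0.23) and Col8a1 (0.56) were not called; a higher change in pBAT was called for 1 gene without replicate 3 of pWAT at day 6.

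The preadipocyte and fibroblast list had 16 of 18 genes with the lower change in pBAT and a median difference of -1.15. Lum and Dcn are small proteoglycans that bind collagen. Lum went in pBAT from 9.28, 9.30 and 9.31 to 10.29, 10.06 and 10.34 and in pWAT from 7.34, 7.83 and 7.88 to 12.25, 12.45 and 12.59. Both cell types gained Lum, pWAT far more (0.93 against 4.75, difference -3.82, SE 0.142, limma adjusted p = 1.27e-15). Dcn differed by -2.55 and Cd34, a progenitor surface protein, by -2.20. Pi16, a mark of multipotent adventitial precursors, fell by 1.28 in pBAT and rose by 1.92 in pWAT (-3.20). Thy1 (0.50) was the member with the higher change, a call that was lost without 6 of the 12 libraries (replicates 3 and 4 of pBAT at day 0, replicate 1 of pBAT at day 6, replicates 1 and 2 of pWAT at day 0 and replicate 3 of pWAT at day 6). In bulk RNA fewer cells of a type and less RNA per cell cannot be told apart.

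Among the other large negative differences were Scg2, a secretory granule protein (-4.30), Smpd3, a neutral sphingomyelinase (-4.01), and Gucy1a1, a subunit of the nitric oxide receptor (-3.77). Scg2 was at 6.85, 6.57 and 6.90 in pBAT at day 0 and at 6.88, 6.86 and 7.60 at day 6, and rose in pWAT from 4.93, 5.55 and 4.93 to 9.32, 9.75 and 10.26. The pBAT groups overlap and the pWAT groups are far apart. Myl1, a fast muscle myosin light chain, rose in pWAT by 4.23 with no called change in pBAT (-3.83, and -2.38 on the log2(CPM-like value + 1) scale). In pWAT the summed skeletal muscle level given above fell, but 1 of its 6 tested genes rose and 1 fell (median change -0.0075). The major urinary protein genes Mup19 (-3.89), Mup9 (-3.68) and Mup15 (-3.50) and the interferon-inducible GTPase gene Gvin1 (-3.55) belong to families of near-identical copies, so reads may have been split between relatives.

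Genes that moved in opposite directions were also named by rule. Those that rose in pBAT and fell in pWAT were Grb14, an adaptor that restrains the insulin receptor (2.39), Rab3b, a vesicle GTPase (2.13, and 1.34 on the log2(CPM-like value + 1) scale), Fstl4, a follistatin-like gene (2.02, and 1.32 on that scale), Nectin2, an adhesion protein (1.85), and Tfap4, a transcription factor (1.51). Grb14 was at 8.46, 8.34 and 8.42 and then 9.41, 9.31 and 9.62 in pBAT, and at 8.93, 8.98 and 9.05 and then 7.78, 7.66 and 7.47 in pWAT. No library of day 6 falls within the range of day 0 in either cell type. Those that fell in pBAT and rose in pWAT were, besides Eln and Pi16, Igfbp2, which binds insulin-like growth factors (-2.62), Col14a1, a fibril-associated collagen (-2.72), and Prss35, a serine protease (-3.36).

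Interferon response genes gave the largest median difference of any list. Type I interferons signal through STAT and IRF transcription factors to antiviral effector genes, and 18 of 18 listed genes had the lower change in pBAT, with a median of -2.35 and a range of -4.01 to -1.23. When both tables had to reach a group mean of 4, 14 were called lower and the median difference was -2.01. In the main test all 18 rose in pWAT (median 2.66), and in pBAT 7 rose and 2 fell (median 0.02). Ifit3, an antiviral protein of the IFIT family, was at 6.26, 6.38 and 5.79 in pBAT at day 0 and at 6.18, 6.24 and 6.16 at day 6. In pWAT it went from 5.07, 4.90 and 5.23 to 9.49, 8.93 and 8.97. The pBAT groups overlap and the pWAT groups are over 3 log2 units apart (difference -4.01, SE 0.284, limma adjusted p = 5.72e-12).

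Rtp4, an interferon-induced antiviral gene, rose by 0.65 in pBAT and 4.64 in pWAT (-3.99), and Isg15, a ubiquitin-like modifier, rose by 2.56 in pWAT with no called change in pBAT (-2.73). Of the RNA sensors, Ddx58 fell by 0.70 in pBAT and rose by 0.91 in pWAT (-1.60) and Ifih1 differed by -1.23. The pathway's own factors Irf7, Stat2 and Irf9 differed by -1.87, -1.68 and -1.26. The summed level of the list was 11.75 to 11.97 at day 0 and 11.93 to 12 at day 6 in pBAT, against 11.5 to 11.64 and 13.27 to 13.81 in pWAT.

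Promoters of these genes are shown because all 18 moved the same way. Of the 18, 15 matched a RefSeq promoter on GRCm38.p6. The core of the interferon-stimulated response element (GAAA, any 2 bases, GAAA) was searched on both strands, where neighbouring matches may overlap, and was in the promoters of 9 of the 15. It was in 3.44% of 32851 promoters and in 3.99% of genes with a promoter. This motif too was chosen with the direction known, and a match says only that the letters are there. Runs are 5′ to 3′ on the gene's strand with matches on either strand in capitals and 30 bases on each side, from chr19:34583343-34583446 (plus strand) for Ifit3, chr19:34640755-34640843 (plus strand) for Ifit1, chr4:156200845-156200926 (minus strand) for Isg15 and chr5:120907500-120907575 (minus strand) for Oas1a.
Ifit3: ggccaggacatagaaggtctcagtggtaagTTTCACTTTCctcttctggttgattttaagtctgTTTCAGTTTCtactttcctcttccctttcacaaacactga
Ifit1: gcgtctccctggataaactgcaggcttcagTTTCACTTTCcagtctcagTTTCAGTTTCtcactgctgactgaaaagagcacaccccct
Isg15: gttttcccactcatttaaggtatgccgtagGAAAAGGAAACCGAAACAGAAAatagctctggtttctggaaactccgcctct
Oas1a: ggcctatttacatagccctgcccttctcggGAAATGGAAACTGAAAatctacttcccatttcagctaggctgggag
Ifit3, Ifit1 and Oas1a each hold 2 matches and Isg15 holds 3. The differences of Ifit1 and Oas1a were -3.22 and -2.84.

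Macrophage markers rose in both cultures and further in pWAT, beside the interferon genes. Of 13 tested, 12 had the lower change in pBAT, with a median difference of -1.12. In pBAT 11 rose (median 2.27) and in pWAT 12 rose (median 3.26). Mrc1, the mannose receptor, was at 8.76, 8.71 and 8.61 in pBAT at day 0 and at a mean of 11.79 (SD 0.194, n = 3) at day 6, and in pWAT at 7.55, 7.78 and 7.60 and then at 12.06, 12.48 and 12.79. Both rises exceed the spread between libraries (difference -1.70, SE 0.171, limma adjusted p = 1.29e-08). Fcgr1, an Fc receptor that interferons induce, differed by -2.49 (-1.65 on the log2(CPM-like value + 1) scale), Lyz2, lysozyme (uncertain because of the similar gene Lyz1), by -1.44, and Cd68, Adgre1 and Csf1r by -1.23, -1.16 and -1.12. The summed level of the list went from 12.04 to 12.19 up to 14.21 to 14.5 in pBAT and from 11.48 to 11.63 up to 14.86 to 14.97 in pWAT. Cd14 was not called, and Aif1 was below the filter in all 4 groups. The part of macrophages in the interferon difference was not tested.

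**Figure D4:**
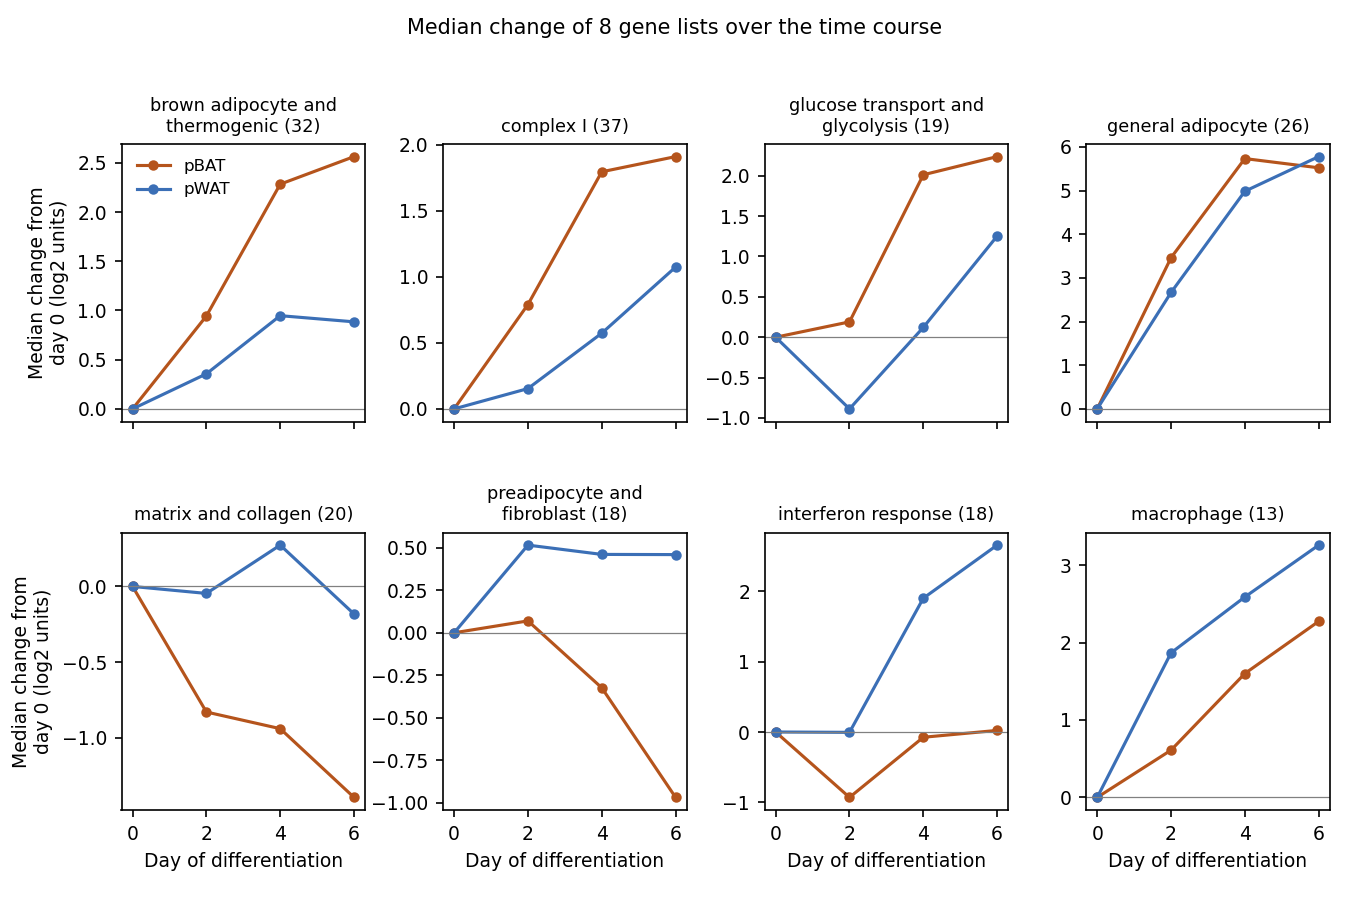
Median change from day 0 (log2 units) at days 2, 4 and 6 for 8 gene lists in pBAT (orange) and pWAT (blue), with the number of genes tested in brackets. Brown, complex I and glycolysis lists run higher in pBAT at each day, and interferon genes climb in pWAT after day 2.

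The time course shows when the lists parted. The brown adipocyte list had a median change of 0.94 in pBAT and 0.36 in pWAT at day 2, and of 2.28 and 0.95 at day 4. Complex I genes were at 0.79 and 0.15 at day 2. Glycolysis genes were at 0.19 in pBAT and -0.89 in pWAT at day 2 and at 2.01 and 0.12 at day 4. Matrix genes were already at -0.83 in pBAT and -0.05 in pWAT at day 2. Interferon genes were at -0.93 in pBAT and -0.005 in pWAT at day 2, and at -0.07 and 1.90 at day 4. The difference of the changes at days 2 and 4 was not tested.

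The integrated stress response, in which ATF4 raises amino acid and redox genes, mostly fell in both cell types. In pBAT 12 of 20 genes fell and 5 rose (median change -0.49), and in pWAT 14 fell and 2 rose (median -0.72). The change was higher in pBAT for 11 of the 20, with a median difference of 0.44. Trib3, a pseudokinase target of ATF4, rose in pBAT from 10.15, 10.12 and 10.37 to 12.31, 12.12 and 12.24 and was in pWAT at 10.98, 11.03 and 10.85 and then at 11.18, 11.14 and 10.69. The pWAT groups overlap and the pBAT groups do not (difference 1.96, SE 0.196, limma adjusted p = 4.14e-09). Ddit3, the CHOP factor, rose by 1.51 in pBAT with no called change in pWAT (1.71), and Atf4 fell by 0.55 in pWAT with no called change in pBAT (0.53). Slc7a11, the cystine carrier, was the member with the lower change (-0.66), a call lost without 7 of the 12 libraries (each of the 3 of pBAT at day 0, replicates 2 and 4 of pBAT at day 6, replicate 1 of pWAT at day 0 and replicate 2 of pWAT at day 6).

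Of 17 targets of NRF2 and BACH1, factors of the redox and heme response, 6 were higher in pBAT, against 17.9% of all genes tested. Among them were Cbr3 (1.03), Srxn1 (0.75) and Gclc (0.74). A lower change was called for 3, a share near the 20.2% of all genes tested, with Nqo1 at -0.89. The lower count was 5 without replicate 4 of pWAT at day 0. Hmox1, heme oxygenase, rose by 1.63 and 1.51 and was not called (0.12, SE 0.108). Circadian clock genes had 3 of 16 higher, a share near the 17.9% of all genes tested: Npas2 (1.40), Nfil3 (0.89) and Per1 (0.71). Clock (-0.26, limma adjusted p = 0.0502) was called as lower without replicate 1 or 4 of pBAT at day 6, replicate 4 of pWAT at day 0 or replicate 3 of pWAT at day 6. All 22 cell cycle genes fell in both cell types, by a median of 2.73 in pBAT and 2.56 in pWAT, and only 2 were called for the difference, the replication genes Mcm7 (0.45) and Pcna (0.38), which fell less in pBAT.

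Markers of other cells that such cultures can hold were counted in the same way. Smooth muscle and pericyte genes fell steeply in both, by medians of 2.72 and 2.83. Of these, 5 of 12 were higher in pBAT and 3 lower, against 17.9% and 20.2% of all genes tested. Acta2, smooth muscle actin, differed by 0.45 (SE 0.120). Skeletal muscle genes had 2 of 6 higher and 4 lower, but the 4 (Tnni1, Chrna1, Myh8 and Mylpf) were below a group mean of 4 in pWAT, and with a minimum of 4 in both tables none was lower. Of 8 endothelial genes 3 were lower and none higher: Tek (-1.97), Eng (-1.39) and Kdr (-1.22, and -0.60 on the log2(CPM-like value + 1) scale). The defining genes Pecam1 (0.15), which was low in pBAT, and Cdh5 (-0.08) were not called. The median difference of the endothelial list was 0.04, but -1.22 when both tables had to reach a mean of 4 and -1.39 with a minimum of 6, and 2 genes were called higher after quantile normalization, without the limma trend and on the log2(CPM-like value + 1) scale. With 1 library left out this median ran on both sides of 0, down to -0.12 without replicate 1 of pBAT at day 6 and up to 0.18 without replicate 4. The summed endothelial level went from 11.48 to 11.52 down to 9.46 to 9.65 in pBAT and from 10.39 to 10.58 down to 9.89 to 10.14 in pWAT. Of 8 Schwann and neural genes 3 were lower, among them Ngfr (-1.07) and Sox10 (-0.56), and 1 was lower without replicate 2 of pWAT at day 0 and after quantile normalization, where the median moved from -0.35 to -0.04. The Sox10 call was lost under 9 alternatives, 7 of them left-out libraries (replicates 3 and 4 of pBAT at day 0, replicate 2 of pBAT at day 6, replicates 2 and 4 of pWAT at day 0 and replicates 1 and 2 of pWAT at day 6). The one mesothelial gene tested, Krt19, was not called, and of 8 lymphocyte genes none passed the filter.

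Positional genes keep a record of where in the body a cell came from. Of 29 HOX genes 20 fell and 1 rose in pBAT, and 16 fell and 3 rose in pWAT. The change was lower in pBAT for 9 and higher for 4, against 20.2% and 17.9% of all genes tested. The higher count was 2 when both tables had to reach a mean of 4. The median difference was -0.24, and near 0 (-0.001) after quantile normalization. Hoxc11 was at 7.02, 7.13 and 6.86 in pWAT at day 0 and 5.62, 5.33 and 5.29 at day 6, while its pBAT values lay between -1.27 and -1.12, at the bottom of that table. Hoxc10 fell in pWAT from 11.24, 11.29 and 11.15 to 10.36, 10.55 and 10.18. Hoxb6 fell by 0.63 in pBAT and rose by 0.68 in pWAT (-1.31). Hoxd3 fell by 2.54 in pBAT with no called change in pWAT (-2.78, and -1.46 on the log2(CPM-like value + 1) scale). Of 17 Wnt pathway genes 8 were lower in pBAT (5 with a minimum group mean of 6 or after quantile normalization), and up to 2 were called higher after quantile normalization or without some libraries, the lower ones led by the secreted Wnt binders Sfrp2 (-1.73), Sfrp4 (-1.54) and Dkk3 (-1.12).

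Genes listed in a single table could not be compared, and a gene missing from a table is not shown to be absent from its cells. The pBAT table holds 835 such genes, of which 4 reached a group mean of 4, and 721 are in pWAT alone, of which 2 did. In pBAT these included the embryonic myosin gene Myh3, which went from 6.34 at day 0 to 2.83 at day 6, the patterning factor Zic4 (6.01 to 5.71), and Sim2 (5.06 to 5.45). In pWAT they were Pitx1, a hindlimb patterning factor (7.75 to 5.87), and Hoxa11 (4.92 to 4.28). Myogenic Myog and Mymk, listed in pBAT only, went from 3.87 in each case to 1.96 and 1.99.

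The libraries of B9, an immortalized brown preadipocyte line, which the comparison does not use, give a further view of the genes named. Of the 12 largest differences on the pBAT side 10 passed the filter in B9 and all 10 rose by day 6 (median 2.68), against 40.6% of all 12380 genes tested there (39.1% fell). Of the 18 interferon genes 17 rose there (median 1.11). Mb rose in B9 by 7.89, Ucp1 by 5.56 and Cidea by 4.03. Of the 12 on the pWAT side 6 passed, of which 4 rose and 1 fell. Eln was one of them, and rose in B9 by 4.68, as in pWAT and unlike pBAT.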

How the data were processed

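RNA-seq libraries of pBAT and pWAT at days 0, 2, 4 and 6 were taken from 1 deposited table per cell type. The authors' deposited values were taken as log2 values: they are fractional, partly negative, and sum to similar totals when raised from log2. They vary little at low levels, as a regularized log does, and hold no read depth, so no counting error or detection limit can be given. Per the submitters' processing notes kallisto, DESeq2 and genome build GRCm39 were used; their versions and roles are not given in the sources used here. The test was therefore limma on the log2 values and no count model. Gene symbols came from an annotation of GRCm38 and matched 99.76% of pBAT and 99.77% of pWAT identifiers.

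Each table was fitted with limma 3.58.1 (R 4.3.3), with 1 mean per day and a mean-variance trend over all 4 days. The changes were subtracted, standard errors were combined as the root of the summed squares with Satterthwaite degrees of freedom, and two-sided p-values were adjusted by Benjamini-Hochberg over 13217 genes. The procedure was tested on simulated data. Genes were named by rule: the 12 largest differences in each direction among called genes with a group mean of at least 6 and library changes that do not overlap, 5 with opposite calls in each direction, Ucp1 and the heme genes, up to 4 or 8 members of a list by smallest adjusted p, and the highest genes listed in a single table. Other genes in the text were added after their values were seen. Members and lists were chosen with earlier results of these data known. Summed levels of a list are log2 of its summed linear values. Promoters are RefSeq, GRCm38.p6. Alternatives were other filters, samples, variance models, normalizations, a log2(CPM-like value + 1) scale, replicate blocks and leaving out each library. Results of some genes are not reported here.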

Additional observations from a re-analysis of the deposited data

Results flagged for a closer look

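The change by day 6 differed between pBAT and pWAT for 5036 genes by a limma test of the difference itself with Benjamini-Hochberg adjustment. Genes named by rule are listed here for that reason, with the difference (pBAT change minus pWAT change, log2 units). Larger changes in pBAT were found for Depp1 (6.50), Cidea (6.05), Mb (5.07), Pck1 (4.96), Cecr2 (4.85), Mreg (4.15), Ucp1 (3.86), Timp4 (3.55), Dhrs9 (3.17), Slc9b2 (3.08), Ppara (3.03) and Hcn2 (2.99). Lower changes in pBAT were found for Eln (-4.70), Scg2 (-4.30), Ifit3 (-4.01), Smpd3 (-4.01), Rtp4 (-3.99), Mup19 (-3.89), Myl1 (-3.83), Lum (-3.82), Gucy1a1 (-3.77), Mup9 (-3.68), Gvin1 (-3.55) and Mup15 (-3.50). Genes that rose in pBAT and fell in pWAT were Grb14 (2.39), Rab3b (2.13), Fstl4 (2.02), Nectin2 (1.85) and Tfap4 (1.51). Genes that fell in pBAT and rose in pWAT were, besides Eln, Igfbp2 (-2.62), Pi16 (-3.20), Col14a1 (-2.72) and Prss35 (-3.36).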

How the results depend on the processing

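Over 11 alternatives and 12 left-out libraries, 183 of 184 summary values stayed within 1.5 times the reported one. The exception was the count of genes higher in pBAT by at least 1, 306 on the log2(CPM-like value + 1) scale; the cause was not tested. Of 3592 values of named genes, 3531 kept direction and side of the threshold. Signs reversed for 3 genes with differences near 0, none of them called. Uros was 0.073 and Ppox 0.0071 after quantile normalization, and Krt19 0.080 there and 0.145 on the log2(CPM-like value + 1) scale. With a library left out the Uros difference ran from -0.190 to 0.110, the Ppox difference from -0.105 to 0.101 and the Krt19 difference from -0.159 to 0.169. With the replicate block by library number 4746 genes were called, Uros was 0.00092 and Ppox 0.0233, and by title number 5077 were called. The numbers were not taken to pair the libraries, because no label says that a shared number marks a shared culture. The deviations of same-numbered libraries from their group means, by library or title number, correlated at -0.0025 to 0.0302 in pBAT. In pWAT these correlations were all positive, at 0.0965 to 0.263. Whether same-numbered libraries share a culture was not tested. Read depth is unknown, and low genes are compressed.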
